A study of Homo sapiens with 8 samples.

Results

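GDF15, PHLDA3, RPS27L and DRAM1 are direct transcriptional targets of the tumour suppressor p53. Peaks of p53 chromatin immunoprecipitation with sequencing (ChIP-seq) were examined in 4 windows on build hg19, one around each gene. They were chosen by position only: a peak belonged to a window when it shared at least 1 bp with it. The windows were chromosome 19 from 18486000 to 18510000 for GDF15 (24 kb), chromosome 1 from 201424000 to 201449000 for PHLDA3 (25 kb), chromosome 15 from 63435000 to 63460000 for RPS27L (25 kb) and chromosome 12 from 102261000 to 102328000 for DRAM1 (67 kb). They held 14 of the 46658 peaks of doxorubicin (Dox) replicate 1, 8 of the 16642 peaks of Dox replicate 2, 6 of the 11304 peaks of vehicle (PBS) replicate 1 and 7 of the 22978 peaks of PBS replicate 2. When peaks of the 4 libraries that overlapped were joined into sites, the windows held 15 of 63890 sites.

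The cells were 293T, derived from human embryonic kidney and expressing the large T antigen of a simian virus. Large T antigen binds p53, so p53 in this line is not in its usual state. One group received doxorubicin, which traps topoisomerase on DNA and leaves breaks, at 0.5 µg/ml for 24 h, and the other received 20 µl of PBS for 24 h. Each group had 2 ChIP libraries made with the same p53 antibody, replicate 1 from passage 3 and replicate 2 from passage 5 in both groups. The 4 input samples were not analysed here. Beyond the passage, the labels do not say how separate the replicates are, so the p-values speak only of these libraries and not of a wider population. They come from exchanging the condition labels of the libraries. The depth of sequencing is not given in the peak lists, and a stretch without a called peak may still hold p53 below the calling threshold.

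p53 binds DNA as a tetramer at elements built from a pair of short half-sites, and many of its elements lie in promoters or early introns of its target genes. GDF15 encodes a secreted cytokine of the TGF-beta superfamily that is made by stressed cells and signals to the brainstem. PHLDA3 encodes a small pleckstrin homology domain protein that competes for membrane lipids and restrains the kinase Akt. RPS27L encodes a ribosomal protein closely related to RPS27 that also affects the MDM2 and p53 pair. DRAM1 encodes a lysosomal membrane protein that promotes autophagy. By order of the protein-coding genes in the RefSeq annotation, GDF15 lies between PGPEP1 and LRRC25 and PHLDA3 between TNNI1 and CSRP1. In the same order RPS27L lies between LACTB and RAB8B, and DRAM1 between GNPTAB and WASHC3. Gene models of hg19 were not used here, so no peak is assigned to an exon, intron or start site.

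Promoter sequence from RefSeq (build GRCh38.p14) was matched for 3 of the 4 genes, GDF15, RPS27L and DRAM1, and searched for the p53 half-site consensus in the 250 bases before the start. The consensus is its own reverse complement, so 1 search covers both strands, and each base had to match. Of 35116 promoters in the table, 5.57% held at least 1 match. RPS27L held 1 match, from 59 to 50 bases before the start, and GDF15 and DRAM1 held none. The sequences of RPS27L and GDF15 are shown because their windows held a peak in all 4 libraries, and capitals mark the half-site. RPS27L lies on the minus strand at chr15:63157478-63157727 and GDF15 on the plus strand at chr19:18385908-18386157. These are GRCh38 positions and cannot be set against the hg19 peaks below. A match describes letters and is not a binding site.
RPS27L: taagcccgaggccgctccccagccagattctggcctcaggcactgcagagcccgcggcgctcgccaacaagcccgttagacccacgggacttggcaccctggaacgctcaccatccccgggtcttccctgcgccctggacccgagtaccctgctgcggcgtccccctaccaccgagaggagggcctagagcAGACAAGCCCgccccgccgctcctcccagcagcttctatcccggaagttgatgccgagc
GDF15: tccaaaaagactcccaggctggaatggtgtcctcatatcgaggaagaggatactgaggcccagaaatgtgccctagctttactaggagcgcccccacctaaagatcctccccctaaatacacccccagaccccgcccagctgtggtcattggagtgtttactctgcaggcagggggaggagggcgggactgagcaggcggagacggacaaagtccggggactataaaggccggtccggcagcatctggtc

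GDF15, PHLDA3 and RPS27L each held a site with a peak in all 4 libraries, and DRAM1 held peaks in the Dox libraries only. In the genome, 6.01% of sites had a peak in all 4 libraries. Of all stretches of 24 kb between the first and the last peak of each chromosome, 3.64% held a peak in all 4 libraries, and of stretches of 25 kb 3.78% did. The peaks within a stretch did not have to overlap, which is a looser measure than a shared site. Over the 15 sites of the windows, 3 were found in all 4 libraries, 3 in 3, 3 in 2 and 6 in 1. All 6 single-library sites belonged to 1 list, Dox replicate 1, the longest, which alone held 48.5% of all sites. The map of the peaks and the bar chart of counts show these patterns.

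**Figure D1:**
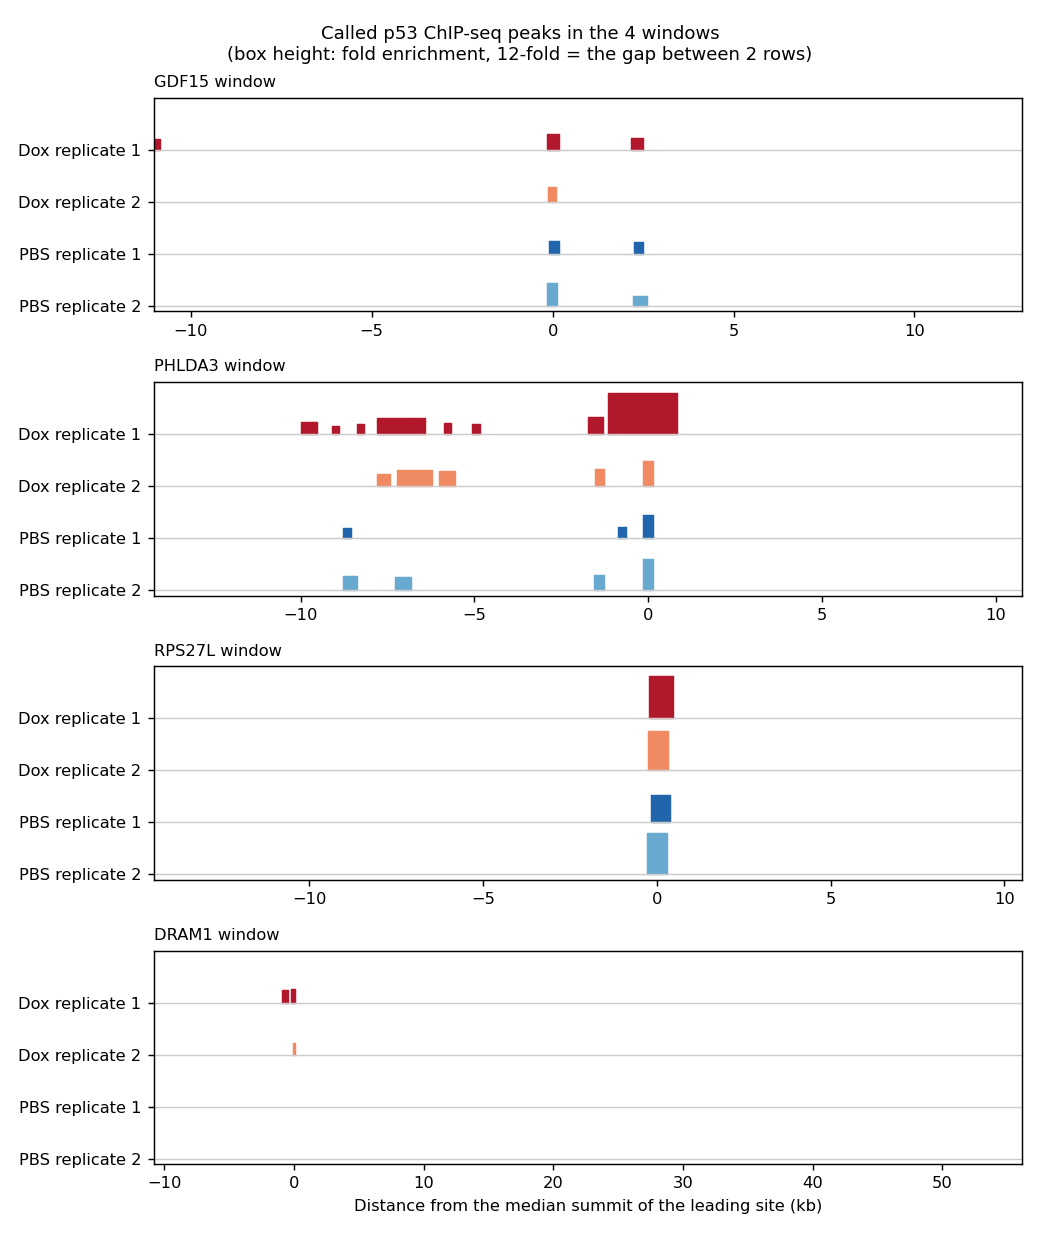
Called peaks in the GDF15, PHLDA3, RPS27L and DRAM1 windows, 1 row per library. The horizontal axis is the distance in kb from the median summit of the leading site, the width of a box is the length of the peak and its height the fold enrichment in its own list. RPS27L shows 1 peak per library at the same place, PHLDA3 a leading site with weaker peaks to its left, GDF15 a shared site with a weaker neighbour, and DRAM1 peaks in the Dox rows only.

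**Figure D2:**
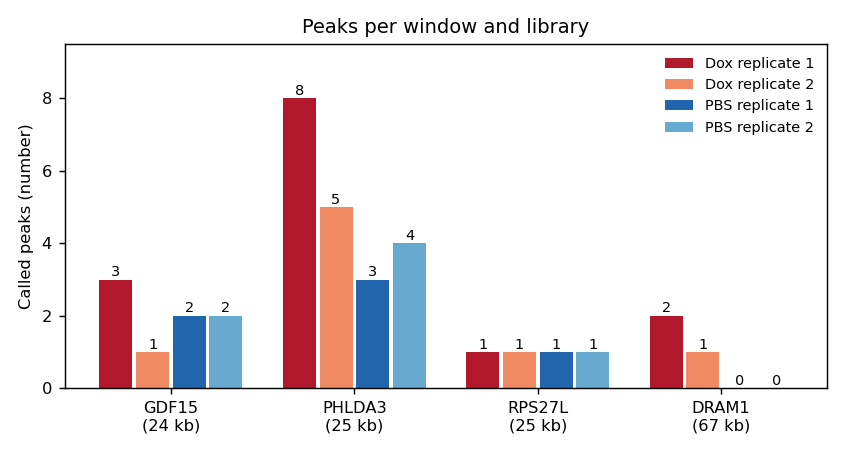
Number of called peaks (vertical axis) in each window, 1 bar per library, with the count above it. PHLDA3 had 8, 5, 3 and 4 peaks in Dox replicates 1 and 2 and PBS replicates 1 and 2, RPS27L had 1 in each library, and DRAM1 had 2, 1, 0 and 0.

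Over the 4 windows the number of peaks was 11.0 ± 4.24 with Dox (SD, n = 2) and 6.5 ± 0.707 with PBS (SD, n = 2), with a two-sided exact permutation p of 0.333, the smallest that 2 libraries against 2 allow. Both Dox libraries held more peaks than either PBS library. These counts are not scaled to list length, which was 46658 and 16642 peaks for Dox and 11304 and 22978 for PBS replicates 1 and 2. As a share of its list, neither Dox library exceeded PBS replicate 1. Dox exceeded PBS by 8 peaks within replicate number 1, from passage 3, and by 1 within number 2, from passage 5. The difference of 4.5 peaks was 1.5 without Dox replicate 1, which has the longest list, 7.5 without Dox replicate 2, and 1 when the same number of top peaks was taken from each list. At a q-value of at most 0.05 the windows held 2, 2, 2 and 3 peaks in Dox replicates 1 and 2 and PBS replicates 1 and 2, a difference of -0.5, against 3.65%, 4.84%, 2.56% and 5.84% of all peaks of these lists. The peaks that passed were the leading peaks of PHLDA3 and RPS27L in every library, and that of GDF15 in PBS replicate 2.

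RPS27L had the site with the smallest p of the 4 windows and no other peak. It lay on chromosome 15 from 63449197 to 63449934. The enrichment over the caller's local background, the authors' own value, was 9.71-fold in Dox replicate 1, 8.99-fold in Dox replicate 2, 6.26-fold in PBS replicate 1 and 9.53-fold in PBS replicate 2. Each list has its own scale of fold and p, so these values describe a peak within its list only. The q-value was 4.54e-12, 1.12e-11, 0.00049 and 3.68e-13 in the same order. By p the peak ranked 119 of 46658, 87 of 16642, 154 of 11304 and 109 of 22978. It thus stood near the top of every list, with or without doxorubicin. The peaks were 689, 576, 543 and 586 bp long, and at most 11.4% of any list was as long or longer. The authors also paired peaks between the replicates of a condition and gave each pair an irreproducible discovery rate (IDR). It is meant to be low for pairs that stand high in both lists, so ranking alike is not enough. The RPS27L pair had an IDR of 3.07e-06 in Dox and 8.44e-05 in PBS. Only 0.979% of the Dox pairs and 1.75% of the PBS pairs had an IDR as low.

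PHLDA3 had the most peaks and a leading site at the high-coordinate end of the group. The leading site covered chromosome 1 from 201437083 to 201439068. Its enrichment in the 2 Dox libraries was 9.56-fold (replicate 1) and 5.85-fold (replicate 2), and with PBS it was 5.39-fold (replicate 1) and 7.18-fold (replicate 2). The q-value was 4.54e-12, 0.00052, 0.0096 and 2.53e-07 in the same order, so the peak passed in every library, and the Dox and PBS values overlapped. By p it ranked 119, 345, 246 and 247 in its lists. The matched pair had an IDR of 4.39e-06 in Dox and 0.00049 in PBS.

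The 4 summits of the PHLDA3 leading site fell within 6 bp of each other, at 201438227 in both Dox libraries, 201438225 in PBS replicate 1 and 201438221 in PBS replicate 2. Of the 3840 sites with a peak in all 4 libraries, 0.260% had summits as close, and the median range was 205 bp. Strong sites had closer summits: over 173 sites at or above percentile 90 of that set in every library, the median range was 44.0 bp, and 2 of the 173 were within 6 bp. The summits of RPS27L, also a strong site, spread over 66 bp, and 17.4% of the 3840 sites and 65.9% of the 173 strong sites were as close. Those of GDF15, which is not among the strong sites, spread over 38 bp, and 7.79% of the 3840 sites were as close. In both genes it was Dox replicate 2 that stood apart from the other 3 summits. The length of the PHLDA3 peak differed more than its summit: 1985 bp in Dox replicate 1, which 0.212% of that list reached, against 269, 277 and 283 bp in the other libraries.

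**Figure D3:**
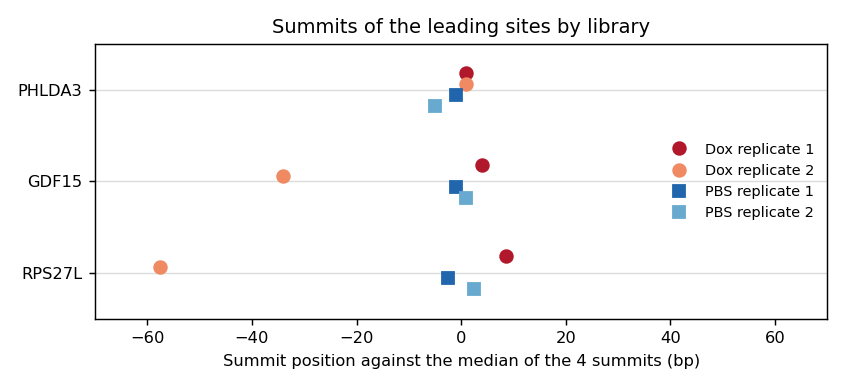
Summit of the leading peak in each library, as the distance in bp (horizontal axis) from the median of the 4 summits, for PHLDA3, GDF15 and RPS27L. Circles are Dox and squares PBS libraries. The PHLDA3 summits lie within 6 bp, while Dox replicate 2 lies apart from the other 3 in GDF15 and RPS27L.

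The 8 other PHLDA3 sites all lay at lower coordinates than the leading one, from 125 to 8384 bp away. A site from 201430424 to 201432000 was enriched 3.71-fold in Dox replicate 1, 3.83-fold in Dox replicate 2 and 2.98-fold in PBS replicate 2, and had no peak in PBS replicate 1. Its q-value was 0.0757 and 0.148 in the Dox libraries. Dox replicate 2 held a further, weaker peak in this site, at 2.78-fold. The Dox pair had an IDR of 0.0048, and 27.5% of all Dox pairs had an IDR of at most 0.05. For replicate 2 this pair had a −log10 p of 3.75, against 5.08 for the stronger peak. The IDR is therefore not that of the stronger peak alone. A site from 201436488 to 201436958 had the same pattern, with 4.10-fold in Dox replicate 1, 4.06-fold in Dox replicate 2 and 3.44-fold in PBS replicate 2, and its Dox pair had an IDR of 0.163. The site from 201432211 to 201432670 was found in both Dox libraries only, at 2.57-fold and 3.60-fold, as were 3.11% of all sites. The site from 201429438 to 201429836 was found in both PBS libraries only, at 2.48-fold and 3.28-fold, as were 0.928% of all sites. Both patterns of exclusive peaks were therefore present within 1 window, among peaks that did not pass a q-value of 0.05. The pair of the Dox-only site had an IDR of 0.139 and that of the PBS-only site 0.427. A peak of Dox replicate 1 from 201429849 to 201430042 began just past the PBS-only site. That label therefore rests on the rule that joined peaks share at least 1 bp. The remaining 4 sites were peaks of Dox replicate 1 alone, at 1.88-fold to 2.77-fold. As many peaks as in the PHLDA3 window, or more, in each of the 4 libraries were found in 0.109% of all stretches of 25 kb.

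GDF15 had a weaker shared site, on chromosome 19 from 18496855 to 18497208. Its enrichment was 3.83-fold in Dox replicate 1, 3.44-fold in Dox replicate 2, 3.01-fold in PBS replicate 1 and, highest of the 4, 5.31-fold in PBS replicate 2. Its q-value was 0.428 and 1 in the Dox libraries, 1 in PBS replicate 1 and 0.0018 in PBS replicate 2. It thus passed a q-value of 0.05 in 1 library, a PBS one. The matched pair had an IDR of 0.395 in Dox and 0.134 in PBS, and 15.0% of all PBS pairs had an IDR of at most 0.05. A second site, 1975 bp away from 18499183 to 18499616, had 2.90-fold enrichment in Dox replicate 1, 2.76-fold in PBS replicate 1 and 2.26-fold in PBS replicate 2, each with a q-value of 1. The last GDF15 peak, at 2.47-fold in Dox replicate 1 alone, crossed the edge of the window.

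A site 738 bp outside the GDF15 window had a smaller p than the GDF15 leading site in each library, though not a higher fold in PBS replicate 2. This outside site lay on chromosome 19 from 18483982 to 18485262. It belongs to no window and is named after its values were seen. Its enrichment was 12.2-fold in Dox replicate 1, 9.09-fold in Dox replicate 2, 8.56-fold in PBS replicate 1 and 5.31-fold in PBS replicate 2, with q-values of 1.12e-18, 1.33e-13, 7.56e-08 and 6.17e-07. In Dox replicate 1 its summit was 12.3 kb from that of the GDF15 leading site. By p it ranked 53, 72, 64 and 268 in its lists, against 3284, 3365, 1928 and 647 for the GDF15 leading site inside the window. The matched pair of the outside site had an IDR of 2.14e-06 in Dox and 0.00046 in PBS. The PBS pair began at 18484250, before the strongest peaks of PBS replicates 1 and 2, at 18484620 and 18484367. Its IDR is therefore not that of these peaks alone. Which gene this site belongs to was not tested. No site in all 4 libraries lay within 5000 bp outside the other windows.

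DRAM1 had called peaks after doxorubicin and none with PBS. The leading site, on chromosome 12 from 102271574 to 102271917, had 3.03-fold enrichment in Dox replicate 1 and 2.60-fold in Dox replicate 2. A further peak of Dox replicate 1, from 102270852 to 102271363, had 2.90-fold enrichment, 211 bp from the leading site. All 3 peaks had a q-value of 1, the summits of the leading peaks were 121 bp apart, and the matched Dox pair had an IDR of 0.218. The nearest peak of PBS replicate 2 was 48013 bp from the leading site, at 2.76-fold, and the nearest peak of PBS replicate 1 was 2087310 bp away. These are weak peaks, and their absence from the PBS lists does not show that p53 was absent there.

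The Dox-only pattern of DRAM1 was shared with many sites. Of all stretches of 67 kb, 2.04% held peaks of both Dox libraries and none of PBS. Of the 8774 sites with a peak in both Dox libraries, 22.6% had none in PBS. Among these 1986 Dox-only sites, 21.0% had as small a p or smaller in Dox replicate 1 and 68.6% in Dox replicate 2, so the DRAM1 site ranked well inside this set in 1 library and low in the other. The window kept its Dox-only pattern when the same number of top peaks was taken from each list, with 4 of 4 windows holding a peak in either Dox library and 3 of 4 in either PBS library (two-sided exact permutation p = 0.333, the smallest possible). Cutting a list can only remove peaks, so DRAM1 could lose its Dox peaks here but could not gain a PBS peak. In those equal lists the DRAM1 peak of Dox replicate 2 stood at percentile 1.06, just inside. At a q-value of at most 0.05 DRAM1 held no peak in any library.

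The leading sites of GDF15, PHLDA3 and RPS27L were set side by side across libraries by their percentile of p among the 3840 sites found in all 4 libraries, which gives 4 rankings of the same sites. This ranking was chosen after the data were seen. For RPS27L the percentile was 96.8 and 97.6 in Dox replicates 1 and 2 and 96.1 and 97.2 in PBS replicates 1 and 2. The mean was 97.2 ± 0.608 with Dox (SD, n = 2) and 96.7 ± 0.792 with PBS (SD, n = 2), with a two-sided exact permutation p of 0.667, a difference smaller than the spread between the libraries of either group. Within the replicate numbers the difference was 0.651 and 0.391 points.

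For PHLDA3 the percentile was 96.8 and 91.4 in the Dox libraries and 93.7 and 94.0 in the PBS libraries. The PBS values lay between the Dox values, with means of 94.1 ± 3.77 with Dox (SD, n = 2) and 93.9 ± 0.203 with PBS (SD, n = 2) and a two-sided exact permutation p of 1. Dox exceeded PBS by 3.05 points within replicate number 1, and the difference was -2.58 points within number 2, and 25.9% of the 3840 sites had this order of signs.

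For GDF15 the percentile was 47.3 and 42.0 in the Dox libraries and 61.2 and 84.8 in the PBS libraries, so both PBS values lay above both Dox values. The means were 44.6 ± 3.74 with Dox (SD, n = 2) and 73.0 ± 16.7 with PBS (SD, n = 2), with a two-sided exact permutation p of 0.333, the smallest possible. The difference was -28.4 points, with -13.9 within replicate number 1 and -42.8 within number 2. Of the 3840 sites, 15.5% had both Dox percentiles below both PBS percentiles and 16.9% had them above, and 16.8% of sites differed by at least as much as GDF15 in either direction. When ranked in the whole lists, which differ in length, the percentiles were 91.8 and 69.8 for Dox and 81.2 and 96.9 for PBS, which overlap. That difference was -8.27 points, and 2.735 without Dox replicate 2. With all lists cut to the length of the shortest, the percentiles were 66.2 and 55.5 for Dox and 81.2 and 93.8 for PBS, which do not overlap, a difference of -26.6 points (two-sided exact permutation p = 0.333, n = 2 each).

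**Figure D4:**
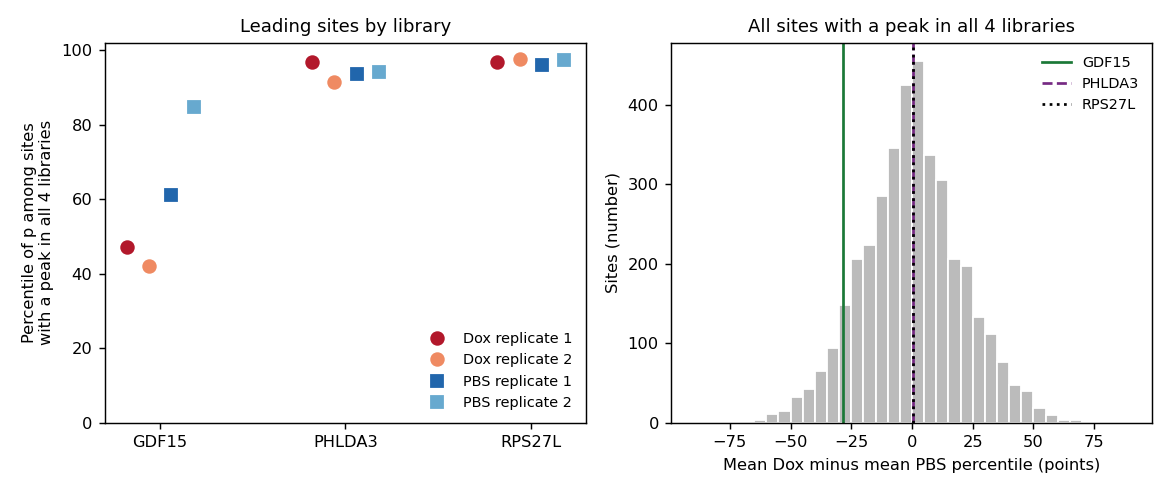
Left, percentile of p (vertical axis) of the leading GDF15, PHLDA3 and RPS27L sites among the 3840 sites with a peak in all 4 libraries, 1 point per library. Right, number of these sites by mean Dox minus mean PBS percentile in points, with a line for each gene. PHLDA3 and RPS27L lie near 0 and GDF15 at -28.4, inside the spread of all sites.

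For the site outside the GDF15 window the same percentile was 98.6 and 98.1 in the Dox libraries and 98.3 and 93.6 in the PBS libraries, which overlap (two-sided exact permutation p = 0.667, n = 2 each). It stood above the GDF15 leading site in each of the 4 libraries.

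For each leading site the 3 sites with the nearest percentiles of p over the whole lists were found. For RPS27L the first of these lay on chromosome 16 from 18812290 to 18813370, at a Euclidean distance of 0.137 percentile points over the 4 libraries, followed by chromosome X from 115003941 to 115005362 (0.265) and chromosome 2 from 121832074 to 121833113 (0.274). For PHLDA3 the nearest lay on chromosome 20 from 26189887 to 26190255 (0.193), chromosome 4 from 49318760 to 49319147 (0.321) and chromosome 1 from 45986299 to 45987758 (0.591). GDF15 had more distant neighbours, on chromosome 13 from 36335377 to 36337951 (2.92), chromosome 10 from 76993698 to 76995089 (3.31) and chromosome 18 from 19811995 to 19812884 (5.63). For DRAM1, 6 other Dox-only sites had the same percentiles in both Dox libraries. Many peaks of a list share the same p, so these are ties. The 3 named here are no nearer than the rest. They lay on chromosome 15 from 79723748 to 79724064, chromosome 2 from 129824783 to 129825413 and chromosome 3 from 32858211 to 32858573.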

How the data were processed

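BWA and MACS2 were used with build hg19, per the submitters' processing notes, which name no version here. The authors deposited 1 peak list per ChIP library, called separately at p under 0.05 as the deposited peak names state. Each deposited peak has a fold enrichment, a ratio over the caller's local background, and its p-value and q-value as −log10. The deposited tables of matched pairs, 1 per condition, give a −log10 p-value for each replicate and an IDR (a q-value). Per the file headers they also give a local IDR fraction, which was left out. Coordinates are printed as deposited. Summits in the last column lie at the start of a peak in some cases and at its end in others, so the convention may be off by 1 bp.

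Peaks sharing at least 1 bp were joined into sites, and the strongest peak by p stood for a library. Percentiles are the percent of peaks or sites with a smaller −log10 p. The leading site of a window had the smallest p in any library. Stretches of each window's length were laid end to end between the first and last peak of a chromosome, gaps included. The merging step was tested on 2000 simulated sites, of which 0 came out in a wrong pattern. Named were the 4 members, every site in their windows, and the 3 sites nearest to each leading site, for DRAM1 3 of 6 tied ones. The members, windows and tests were chosen with earlier results of these data known. A wider list of p53 targets needs gene positions on hg19, which were not used here. Alternatives were a q-value limit, a fold minimum of 4, equal list length, at least 0.5 of a peak's length inside the window, windows changed by 5000 bp, each library left out, and the replicate block. The scripts ran on Python 3.11.15 with matplotlib 3.10.9, numpy 2.4.6 and pandas 2.3.3.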

Additional observations from a re-analysis of the deposited data

Results flagged for a closer look

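The Dox minus PBS difference of the PHLDA3 leading site had opposite signs in the replicate numbers, which are also the passages. Its percentile among the sites with a peak in all 4 libraries was 3.05 points higher with Dox within number 1, and the difference was -2.58 points within number 2. Each value rests on 1 library per condition, and whether the numbers differ was not tested. Of all 3840 such sites, 25.9% had Dox above PBS within number 1 and below it within number 2.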

How the results depend on the processing

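The difference in peak number over the 4 windows, 4.5, became -0.5 at a q-value of at most 0.05, 0.5 at a fold of at least 4 and 1 at equal list length, and ranged from 1.5 to 7.5 with 1 library left out. The difference in windows with a peak, 1, became -0.5 at that q-value and -0.5 at that fold. At these limits DRAM1 holds no peak and GDF15 holds 1 in PBS replicate 2 only. For GDF15 the difference in percentile was 0.602 with extended windows, because the site outside then enters, and ran from -19.3 to 2.735 with 1 library left out. At equal list length it was -26.6 for GDF15. For PHLDA3 the difference of 0.460 became 27.4 at that q-value and 6.13 at that fold, and ran from -0.479 to 1.4 with 1 library left out. For RPS27L the difference of 0.515 became 21.5 at that q-value and 7.46 at that fold, and ran from 0.0692 to 0.962 with 1 library left out. These limits shorten each list, which spreads the percentiles, and the exact p was 0.667 in each. Windows with a matched pair went from 4 to 2 in Dox and from 3 to 2 in PBS at an IDR of at most 0.05, where fewer pairs remain, so the conditions then had the same number. Over the 7 results, 55 of 67 alternatives kept the direction or, for counts, stayed within 1.5 times, some percentile differences with the changes in size given here, and no p in this design can pass 0.05. The replicate block took the differences within the 2 numbers. Its mean difference equals that of the groups by construction, 4.5 peaks and 1 window included. It therefore counts among the kept alternatives whatever the data. The exact sign-flip p was 0.5 for peaks and for windows and 1 for the whole-list percentiles. For the ranking among sites in all 4 libraries it was 0.5 for GDF15 and RPS27L and 1 for PHLDA3, and 2 pairs allow none below 0.5. GDF15 has no value at the q-value or fold limit and DRAM1 none for a percentile difference, since libraries without a peak have no rank, and no matched table can be made without a library. The ranking among sites in all 4 libraries was added after the data were seen. Read depth is unknown, so what it limits was not tested.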
